A study of Arabidopsis thaliana with 7 samples.

Results

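The comparison described here sets the WRKY18/40 T-DNA double knockout after Pst-DC3000 against wild-type Col-0 after MgCl2, the mock treatment, on 2 of the 7 arrays of the series. The arrays were selected from the sample labels, genotype from the source name and treatment from the title, and all 22746 probe sets other than the 64 controls entered the comparison, of 22810 in all. Each array was a 1-colour Affymetrix ATH1 oligonucleotide array, hybridised with RNA of entire rosettes from Arabidopsis thaliana plants aged 14 days. All plants, the mock-treated ones included, grew under 10 hours of light and 14 of darkness, at 22 degrees in the light and 19 in the dark with 70% humidity, in a peat, vermiculite and sand substrate treated with Confidor WG70, which holds 70% of the insecticide imidacloprid, at 12 g per cubic metre of soil. The double knockout carried T-DNA insertions in WRKY18 and WRKY40 and was sampled after Pst-DC3000 only. A wild-type Col-0 array after Pst-DC3000 and arrays of the WRKY18, WRKY40, WRKY53 and WRKY60 T-DNA knockouts after Pst-DC3000 are used below for reference.

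Each group was 1 array, so no value has a replicate error, no p-value was computed, and a difference between arrays cannot be told apart from one between plants or hybridisations. The double mutant was compared with a mock-treated wild type, so the effects of the bacterium and of the genotype cannot be told apart in the ratio alone. For that reason the signal on the wild-type Pst array is given for the genes past 2-fold that are described. The time between inoculation and harvest, the number of plants pooled and the positions of the insertions are not given in the sources used here.

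WRKY proteins are plant transcription factors that bind W-box elements, and WRKY18, WRKY40 and WRKY60 form group II-A of the family, whose members bind each other and are known in Arabidopsis as regulators, largely repressive, of basal defence. Pst-DC3000 is a strain of Pseudomonas syringae pathovar tomato that infects Arabidopsis leaves. It secretes effector proteins that dampen pattern-triggered immunity, the response to conserved microbial molecules, and it makes coronatine, a mimic of the active jasmonate that turns on jasmonate-responsive genes and opposes salicylic acid signalling.

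The mock and double mutant arrays were alike in their overall properties. Their median signals were 36.8 and 36.6, and 41.3% and 41.2% of probe sets lay below the floor. Signals under a floor of 22.1 were raised to it before ratios were taken. This floor is the 40th percentile of signal averaged over the arrays, and where the lower signal lay beneath it the fold is a lower bound, written as at least. Spike-in probe sets of bacterial and phage genes had medians of 105 and 110.5, and the ratio of 3' to 5' signal of the GAPDH control was 0.886 and 0.892. The wrky60 array stood apart, with a spike-in median of 969 against 84.9 to 149 on the other 6 arrays.

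A single named gene could be given to 13513 of the 22746 probe sets. WRKY18 and WRKY40 were not among these genes, so the knockouts could not be checked by a probe set of either name. Of the probe sets with no gene in the annotation, the 2 with the lowest ratios of the double mutant to mock followed the labels of single knockouts. Probe set 261892_at had signals of 230 on the mock array, 310.4 on the wild-type Pst array and 16.5 on the double mutant array, with 11.7 on the wrky40 array and 288, 299 and 231 on the wrky18, wrky53 and wrky60 arrays. It was thus low on the 2 arrays labelled as WRKY40 knockouts and on no other. Probe set 253485_at had 189 on the mock array, 176 on the wild-type Pst array and 20.3 on the double mutant array, with 1.83 on the wrky18 array and 328, 131 and 124 on the wrky40, wrky53 and wrky60 arrays. It was low on the 2 arrays labelled as WRKY18 knockouts and on no other. Which genes these probe sets measure was not determined here.

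On the infected double mutant array, all 4 measured genes of the jasmonate list and the defensin genes PDF1.2 and PDF1.2b were at least 2-fold higher than on the mock array. So were NAI1, NAI2, JAL34 and JAL23, whose products are linked to endoplasmic reticulum bodies. WRKY53, WRKY47, WRKY22, CaS, CRR42 and LHCB4.3 were at least 2-fold lower. In all, 429 probe sets (1.89%) had a signal at least 2-fold above the mock array, and 219 (0.963%) one at least 2-fold below it. On the wild-type Pst array, set against the same mock array, 317 probe sets (1.39%) were higher and 277 (1.22%) lower. At 2-fold the double mutant array thus had more higher and fewer lower probe sets than the wild-type Pst array, and both counts share the error of the mock array. At 1.5-fold it had more of both, 1042 higher and 1099 lower against 882 and 939, so the order of the lower counts turned with the threshold. Compared directly with the wild type after Pst, the double mutant had 216 probe sets (0.95%) that were higher and 32 (0.141%) that were lower. This split depended on the settings, with 388 and 175 at a floor of the 25th percentile, 127 and 9 with the floor value added to each signal, and 701 and 537 at 1.5-fold.

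The other infected mutants give a scale for these counts. Against mock, the wrky40 array had 315 higher (1.38%) and 321 lower probe sets (1.41%), the wrky18 array 323 (1.42%) and 356 (1.57%), and the wrky53 array 466 (2.05%) and 590 (2.59%). The wrky60 array had 1784 (7.84%) and 944 (4.15%). The double mutant array was the one among these, wrky60 aside, with more higher than lower probe sets by over 1.5 times, 429 against 219. Among the 10 pairs of Pst arrays without wrky60, 43 to 615 probe sets differed 2-fold, with a median of 205, and the double mutant and the wild type after Pst differed in 248 (1.09%). Higher probe sets reached larger folds than lower ones. Of the 429, 85 were at least 4-fold and 20 at least 8-fold higher, whereas of the 219 only 6 were at least 4-fold and 2 at least 8-fold lower. With the floor at the 60th instead of the 40th percentile, the counts were 256 higher and 120 lower, and of the called genes named below 38 of 55 higher and 18 of 31 lower ones were still past 2-fold. In 79 of the 429 the mock signal, and in 24 of the 219 the double mutant signal, lay below the floor.

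**Figure D1:**
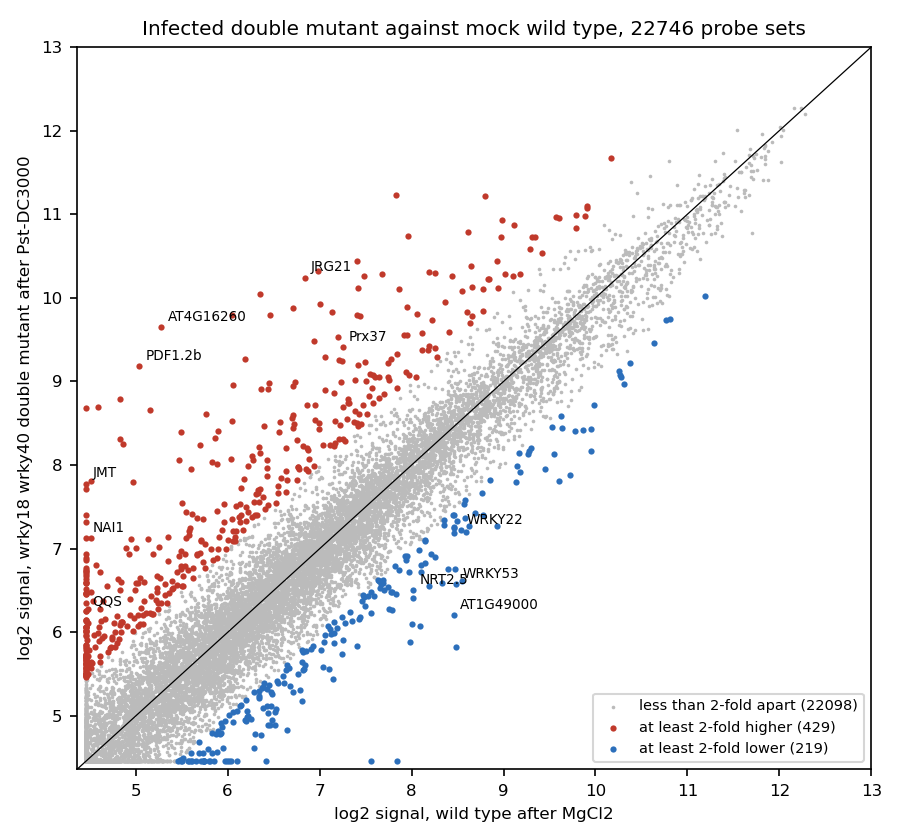
Each point is 1 of 22746 probe sets, with log2 signal on the mock wild-type array on the horizontal axis and on the infected double mutant array on the vertical axis, both after the floor. The 429 probe sets at least 2-fold higher (red) spread farther from the line of equal signal than the 219 at least 2-fold lower (blue), and points on the left or lower edge are at the floor on the mock or the double mutant array.

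After keeping 1 probe set per gene, 13286 genes had a name, of which 172 (1.29%) were higher and 103 (0.775%) lower than on the mock array. The called probe sets with no named gene, 248 of the 429 and 110 of the 219, were counted but are not described further. Of the called genes, 39 of the 172 and 13 of the 103 have a symbol other than a locus code, and all 52 are described below by role. This choice by symbol was made after their values were seen. Other genes are given by locus code, with no role where the tables used here annotate none. Some of them have another symbol on the gene lists. These include JOX4 for AT2G38240, JOX2 for AT5G05600, FOX1 for AT1G26380, SARD4 for AT5G52810 and UGT74C1 for AT2G31790.

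Jasmonate genes were higher on the double mutant array to about the same extent as on the wild-type Pst array. JRG21 (AT3G55970), a jasmonate-regulated gene, had signals of 114 on the mock array, 995 on the wild-type Pst array and 1210.0 on the double mutant array, 10.6-fold higher than mock on the last. JMT (AT1G19640), the enzyme that methylates jasmonic acid, had 13.7, 162 and 219.5, at least 9.94-fold higher than mock. The 4 other infected mutants lay between 114 and 223 for JMT and between 1079 and 1289.9 for JRG21, so every infected array was high for both genes. OPCL1 (AT1G20510), a CoA ligase of jasmonate synthesis that was not on the jasmonate list, had 143, 373 and 466, 3.27-fold higher. A named probe set was found for 6 of the 37 genes of the jasmonate list, and 4 of these were measured, that is, had a mean signal over the 7 arrays at or above the floor. As 6 of the 7 arrays were infected, a gene below the floor on the mock array, such as JMT, could be measured through its infected signals. This filter favours genes high after Pst, here and in the lists below. All 4 measured members were at least 2-fold higher on the double mutant array. Their median log2 ratio was 2.74, against -0.02 over the 7259 measured genes, of which 2.33% were higher and 1.41% lower. Beside JRG21 and JMT these were AT2G38240, with 391.99, 1573 and 1769.7, 4.51-fold higher, and AT5G05600, with 552, 1945 and 1868, 3.38-fold higher. On the wild-type Pst array the median of the 4 was 2.44. The unmeasured members, THI2.1 and AT3G11180, were below the floor on the mock and on both of these infected arrays, and the median over all 6 in the double mutant was 1.97. No member of the list differed 2-fold between the double mutant and the wild type after Pst.

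The defensin genes PDF1.2 and PDF1.2b had higher signals in the infected double mutant than in the infected wild type, and the other measured defensins did not reach 2-fold. Plant defensins are small antimicrobial proteins, and PDF1.2 and its close copies are markers of combined jasmonate and ethylene signalling. PDF1.2b (AT2G26020) had signals of 32.8 on the mock array, 205 on the wild-type Pst array and 583 on the double mutant array, and 167 to 344 on the other 4 Pst arrays. Its ratio to mock was 17.8-fold on the double mutant and 6.24-fold on the wild-type Pst array. PDF1.2 (AT5G44420) had 29.1, 147 and 305 on the same 3 arrays, with 133 to 205 on the other Pst arrays, 10.5-fold and 5.05-fold over mock. The double mutant array was the highest of the 6 Pst arrays for both genes, 2.85-fold and 2.07-fold above the wild-type Pst array. The copies are similar in sequence and the probe set of PDF1.2b is of a type that can bind several transcripts, so their signals are not independent. The other measured genes with a symbol starting with PDF or a synonym of that form, 5 of 7, among them the peptide deformylases PDF1A and PDF1B, were less than 2-fold from mock, between -0.51 for LCR68 and 0.29 for PDF1A on the log2 scale.

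Among further genes of secreted defence proteins, the called genes Prx37, CHI and OSM34 had their highest signals in the double mutant among the 3 arrays compared. They were grouped after their values were seen. The other measured gene of the peroxidase list, AT5G64120, went the other way, with 3767 on the mock, 2625 on the wild-type Pst and 2725 on the double mutant array. AT4G08780, next to Prx37 in the annotation but not on that list, was at least 4.85-fold higher and is given below. Prx37 (AT4G08770), a class III peroxidase, had signals of 152, 221 and 682 on the mock, wild-type Pst and double mutant arrays, 4.48-fold higher than mock on the last, and 157 to 323 on the other 4 Pst arrays. CHI (AT2G43570), a chitinase, had 26.8, 32.5 and 61.7, 2.31-fold higher, but 9.25 to 83.3 on the other Pst arrays, so the double mutant did not stand outside them. OSM34 (AT4G11650), an osmotin, had 0.925, 1.62 and 49.1, at least 2.23-fold higher. It was below the floor on every array but that of the double mutant, with at most 6.39 on the other Pst arrays, and its mean over the 7 arrays was below the floor too.

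Endoplasmic reticulum bodies are compartments of Brassicaceae that store beta-glucosidases used against attackers. NAI1 is the transcription factor needed to form them, NAI2 a structural protein, PYK10 their main beta-glucosidase, and jacalin-related lectins bind to that enzyme when cells are broken. NAI1 (AT2G22770) had a signal of 21.6 on the mock array, 182 on the wild-type Pst array and 139.5 on the double mutant array, at least 6.32-fold higher than mock on the last, with 153 to 222 on the other Pst arrays. NAI2 (AT3G15950) had 113, 345 and 299, 2.65-fold higher. PYK10 (AT3G09260), included in the list of root markers for its high level there, had 365, 657 and 654, which is less than 2-fold, 1.79-fold higher. All 4 measured jacalin lectins had log2 ratios above 0, with a median of 0.95 on the double mutant array against 1.16 in the infected wild type. Of the 4, 2 were at least 2-fold higher in the double mutant, where 2.33% of all measured genes were. JAL34 (AT3G16460) had 276, 1348 and 767, 2.78-fold higher than mock but the lowest signal of the 6 Pst arrays, where the other 4 had 1049 to 2498. JAL23 had 18.4, 56.2 and 46.4, at least 2.1-fold higher, while JAL33 and JAL22 had log2 ratios of 0.84 and 0.68. Every ER body gene named here lay within 2-fold of its wild-type Pst signal on the double mutant array.

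Of 26 salicylic acid genes on the list, 5 were measured and 3 of these were at least 2-fold higher on the double mutant array, with none at least 2-fold lower. Over all measured genes 2.33% were higher and 1.41% lower. The members of the salicylic acid list differed in role and in pattern. BSMT1 (AT3G11480), which converts salicylic acid to its methyl ester, had signals of 1.09, 101 and 99.3 on the mock, wild-type Pst and double mutant arrays, at least 4.5-fold higher than mock in the double mutant and nearly equal on both infected arrays. GRX480 (AT1G28480), a glutaredoxin that binds TGA factors, had 17.7, 78.7 and 102, at least 4.63-fold higher. UGT76B1 (AT3G11340), a glucosyltransferase that acts on salicylic and isoleucic acid, had 177, 216 and 423, 2.39-fold higher, with 178 to 258 on the other Pst arrays, so that the double mutant array alone was high. SAG101, a partner of EDS1 in defence, had 54.2, 31.2 and 36.1, and AT5G52810 134, 75.1 and 146, both less than 2-fold from mock. The median log2 ratio of the 5 was 1.25 on the double mutant and 0.29 on the wild-type Pst array. PR1, PR2 and PR5, the usual markers of salicylic acid signalling, were among the members with no named probe set.

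**Figure D2:**
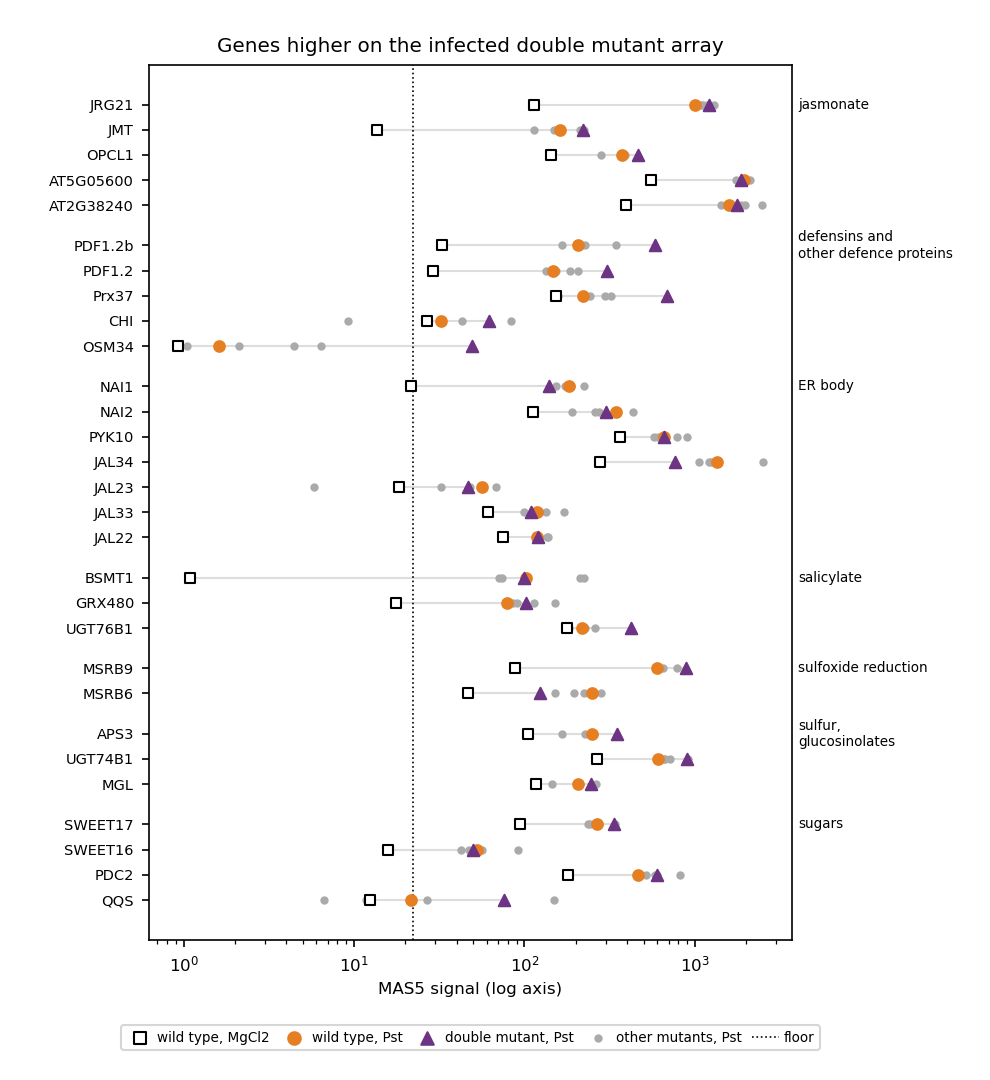
Signals on a log axis for named genes grouped by role, with 1 point per array: open squares for mock wild type, circles for wild type after Pst-DC3000, triangles for the double mutant after Pst-DC3000 and small grey points for the other 4 infected mutants; the dotted line is the floor of 22.1. For the jasmonate and ER body genes the triangle lies within 2-fold of the circle, whereas for PDF1.2b, PDF1.2, Prx37, OSM34 and UGT76B1 the triangle lies to the right of every other array.

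Genes of redox repair and of sulfur and glucosinolate metabolism were also among the higher ones. MSRB9 (AT4G21850) and MSRB6 (AT4G04840) encode methionine sulfoxide reductases, which repair oxidised methionine in proteins. MSRB9 had 87.8, 596 and 887 on the mock, wild-type Pst and double mutant arrays, 10.1-fold higher than mock. MSRB6 had 46.5, 249 and 122, 2.64-fold higher than mock and 2.03-fold lower than on the wild-type Pst array, so that the double mutant was the highest of the 6 Pst arrays for MSRB9 and the lowest for MSRB6. ATMDAR2, a monodehydroascorbate reductase that recycles ascorbate, had 492, 841 and 1109, 2.25-fold higher. APS3, an ATP sulfurylase of sulfate assimilation, had 105, 248 and 348, 3.32-fold higher, and MGL, methionine gamma-lyase, 117, 206 and 244, 2.09-fold higher. UGT74B1, which glucosylates the core of glucosinolates, had 267, 603 and 897, 3.36-fold higher. These 4 genes lay within 1.5-fold of their wild-type Pst signals. In the aliphatic glucosinolate list, BCAT4, an aminotransferase of methionine chain elongation, and AT2G31790 had log2 ratios of 0.41 and 0.33, both under 2-fold.

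Of the called genes that act in sugar and carbon metabolism, grouped after their values were seen, SWEET17, SWEET16, PDC2 and QQS were higher and ATSPS4F, a sucrose phosphate synthase, was lower. SWEET17 (AT4G15920) and SWEET16 (AT3G16690), sugar transporters of the vacuole membrane, had 337 and 49.7 on the double mutant array against 94.2 and 15.9 on the mock array, 3.57-fold higher and at least 2.25-fold higher, and 266 and 52.6 in the infected wild type. PDC2, a pyruvate decarboxylase, had 181, 462 and 599.8, 3.32-fold higher. All 3 lay within 1.5-fold of their wild-type Pst signals. QQS (AT3G30720), an orphan gene that affects starch, had 12.4 on the mock array, 21.6 on the wild-type Pst array, 76.2 on the double mutant array and up to 149.5 on the other Pst arrays, the highest being wrky40. It was at least 3.45-fold higher on the double mutant than on the mock array. ATSPS4F had 188, 97.6 and 75.1 on the mock, wild-type Pst and double mutant arrays, 2.51-fold lower than mock on the last. The cell wall genes TBL26 and TBL37, of the family that acetylates wall polysaccharides, were 6.13-fold higher and 2.34-fold higher, with signals of 140.2 and 911 on the double mutant against 219 and 1008 on the wild-type Pst array.

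Enzymes of small-molecule conjugation and oxidation were mixed. On the double mutant array 2.33% of all measured genes were at least 2-fold higher than mock and 1.41% lower. Of 51 UDP-glycosyltransferase genes, 33 were measured, and on that array 5 of these were past 2-fold higher and 0 past 2-fold lower, around a median log2 ratio of 0.03. Beside UGT74B1 and UGT76B1 these were UGT73B4, 2.42-fold higher, UGT71C3, with 10.5, 41.5 and 95.9 on the mock, wild-type Pst and double mutant arrays, at least 4.35-fold higher, and UGT76E12, with 167, 622 and 518, 3.1-fold higher. UGT71C3 was the highest of the 6 Pst arrays in the double mutant. On the wild-type Pst array 2 of the 33 were higher and 2 lower, where 1.89% of all measured genes were higher and 1.9% lower. UGT73B4 and its neighbour UGT73B5 had 82.7 and 83.2 on the double mutant array, 28.8 and 31.3 in the infected wild type, and 34.2 and 69.5 on the mock array. UGT71B6, an abscisic acid glucosyltransferase, had 66.8, 14.4 and 35.4 on the mock, wild-type Pst and double mutant arrays. Of 23 cytochrome P450 genes 10 were measured, with 1 higher and 0 lower. That one, CYP71B22, was 2.4-fold higher, with 167, 203 and 402. The related genes CYP71B23 and CYP71B24 were low on the wild-type Pst array, at 272 and 26.9, but near mock on the double mutant array, at 589.8 against 687 and 114 against 93.7. Cross-hybridisation between the probe sets of this subfamily was not tested. All 5 measured glutathione transferases of 14 had log2 ratios below 0, and none reached 2-fold.

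Calcium-related and regulatory genes completed the higher set. CML38 (AT1G76650) and CML41 (AT3G50770), calmodulin-like proteins, were 2.18-fold higher and at least 2.03-fold higher than mock. On the mock, wild-type Pst and double mutant arrays CML38 had 42.4, 41.4 and 92.6, and CML41 17, 29.3 and 44.8. They were the 2 past 2-fold among 5 measured calmodulin-related genes, where 2.33% of all measured genes were higher and 1.41% lower. CML42 had 166, 83.2 and 137 on the same arrays. IQD22, an IQ-domain protein, had 138, 344 and 304, 2.2-fold higher. STZ (AT1G27730), a zinc finger repressor of stress responses, had 398, 449.9 and 834, 2.1-fold higher, the only member of the 4 measured abscisic acid and cold genes past 2-fold. COR15A, COR15B and COR47, genes of cold and drought tolerance, had log2 ratios of -0.11, -0.04 and -0.61. BIM1, a basic helix-loop-helix partner of brassinosteroid-responsive factors, was 2.18-fold higher, and nearly equal on both infected arrays, 158 and 160.4. In the same order of arrays scpl31, a serine carboxypeptidase-like protein, had 27.8, 52.4 and 73.5, 2.64-fold higher, and GAT1_2.1, a glutamine amidotransferase, 25.1, 29.99 and 62.1, 2.47-fold higher. A second probe set of GAT1_2.1 was below the floor on the mock and both of these infected arrays.

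Among genes given by locus code, AT4G16260 had the highest ratio of all named genes, with signals of 38.8 on the mock array, 153 on the wild-type Pst array and 801 on the double mutant array, 20.7-fold higher. On the other Pst arrays it lay between 97.2 and 327, so it was high on every infected array and highest in the double mutant. AT4G24350 had 81.7, 851 and 1055, and AT3G28220 87.6, 613 and 506, both within 1.5-fold of the wild-type Pst array. AT1G23850 had 20.4, 96.1 and 209.6, at least 9.49-fold higher, and AT3G56200 45, 185 and 337, 7.49-fold higher. AT4G08780, next to Prx37 in the annotation, was at least 4.85-fold higher, with 16.7, 34.4 and 107. AT1G25500 had 16.5, 127 and 109, at least 4.94-fold higher. Of the 15 named genes highest over mock, 9 lay within 2-fold of the wild-type Pst array and 6 at least 2-fold above it. Over all measured genes 1.25% lay at least 2-fold above that array and 0.152% below it. The 15 were chosen by a high double mutant signal, which also enters this comparison, so the count only describes them.

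The genes on which the double mutant array was high and farthest from the wild-type Pst array were then taken, 8 of them by a rule on these same values, which therefore describes them without supporting a difference. AT1G26380 had a signal of 117 on the mock array, 28.5 on the wild-type Pst array and 291 on the double mutant array. It was 4.1-fold lower than mock on the wild-type Pst array but 2.49-fold higher on the double mutant array, and the other 4 Pst arrays, at 21.4 to 76, all lay below mock. It was the 1 named gene, and the 1 probe set of the 22746, past 2-fold in opposite directions in both genotypes. AT2G35730 had 5.24, 25.1 and 117, at least 5.29-fold higher than mock. AT1G64710 had 77.5, 64.2 and 266, AT5G39670 66.6, 37.1 and 137, and AT1G08940 79.1, 55.4 and 201. For these 3 the wild-type Pst array was below the mock array and the double mutant array above it. AT4G19370 had 22.4, 22.9 and 77.9. The double mutant array was the highest of the 6 Pst arrays for 7 of the 8 genes, the exception being QQS.

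A second set held genes that were at least 2-fold lower than mock on the wild-type Pst array but near or above mock in the double mutant. The 8 farthest back, again chosen by these values, were AT1G26380 and 7 others. CYP71B24 had 93.7, 26.9 and 114 on the mock, wild-type Pst and double mutant arrays. AT1G19020 had 527, 173 and 579.8, and AT5G52750 191, 51 and 164. In each the double mutant lay within 1.5-fold of mock while the wild type after Pst was low. AT4G20000 had 107, 22.6 and 95.4, AT2G36690 218, 98.4 and 312, AT3G21080 163, 73.4 and 245, and AT5G20400 122, 58.1 and 178. On all 8 the double mutant was the highest of the 6 Pst arrays. In the camalexin and indole list the loci near AT1G26380 differed from it against mock: AT1G26410 had 47.6, 3.82 and 37.9, and AT1G26420 371, 143 and 244. Both were lower than mock on the double mutant array, by less than 2-fold, and AT1G26390 was below the floor on these 3 arrays. The 4 measured members of that list had medians of 0.49 in the double mutant and -1.24 in the wild type after Pst, both against mock.

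**Figure D3:**
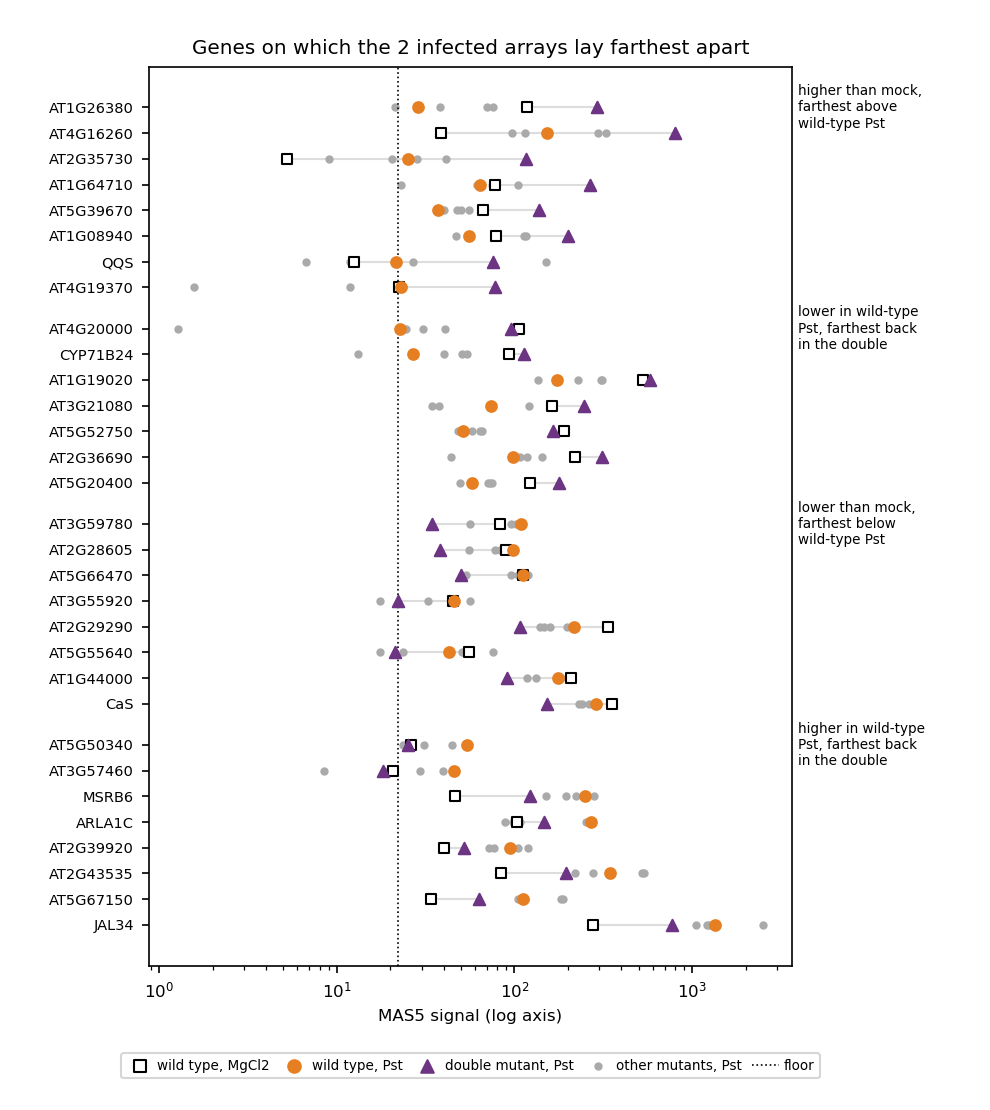
Signals on a log axis, with the symbols of the plot of higher genes, for the genes on which the double mutant and the wild type after Pst-DC3000 lay farthest apart, in 4 blocks named at the right. In the upper blocks the triangle lies right of the circle, and for AT1G26380 the circle is at 28.5 and the triangle at 291, on either side of the mock square at 117.

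Of the genes of pattern-triggered immunity, WRKY22 alone passed 2-fold on the double mutant array, where 2.33% of all measured genes were higher and 1.41% lower. A named probe set was found for 6 of the 25 genes on the list. All 6 were measured, with log2 ratios to mock from -1.31 to -0.19. PUB24, BIK1 and PUB23, at -0.19, -0.22 and -0.22, differed less from mock than the reference gene AT2G28390, at -0.24. WRKY22, a transcription factor downstream of flagellin perception, had 370.4, 146 and 149.7 on the mock, wild-type Pst and double mutant arrays. BIK1, the cytoplasmic kinase that signals from pattern receptors, had 412, 234 and 355, and EFR, the receptor for bacterial elongation factor Tu, 43.6, 22.1 and 30.5. The U-box ubiquitin ligases PUB22, PUB23 and PUB24, negative regulators of this response, had 422, 341 and 94.6 on the double mutant array, against 552, 397 and 108 on the mock array and 292, 257 and 61.2 on the wild-type Pst array. For these 5 genes other than WRKY22 the double mutant array had the highest signal of the 6 Pst arrays. The median log2 ratio to mock was -0.30 on the double mutant and -0.87 on the wild-type Pst array.

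WRKY53 (AT4G23810), a regulator of leaf senescence and defence, had the third lowest ratio of all named genes, with 358 on the mock array, 107 on the wild-type Pst array and 95.5 on the double mutant array, 3.75-fold lower than mock. The wrky53 array had 3.07, below the floor, and the other 3 infected mutants up to 141. WRKY47 had 306, 117 and 119.8, 2.55-fold lower than mock on the double mutant array. WRKY53, WRKY47 and WRKY22 were thus low on both infected arrays, to within 1.12-fold of each other. WRKY6, also linked to senescence and defence, had 189, 110.2 and 240.2, below mock on the wild-type Pst array and above it in the double mutant, by less than 2-fold each. The 7 WRKY genes with a named probe set included ZAP1 and WRKY20, with log2 ratios of 0.20 and -0.25, and WRKY42, below the floor. In the list of senescence genes, 4 of 23 were measured, and only WRKY53 passed 2-fold. Over all measured genes 2.33% were higher and 1.41% lower. PPDK, which aids nitrogen export from senescing leaves, had a log2 ratio of 0.13.

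Among called genes whose products act in the chloroplast, CaS, CRR42 and LHCB4.3 were lower and TAAC, the thylakoid ATP/ADP carrier, was higher on the double mutant array. They were grouped after their values were seen, and the group is not a full count of called chloroplast genes. CaS (AT5G23060), the calcium sensing protein of the thylakoid, had 353, 289 and 153 on the mock, wild-type Pst and double mutant arrays, 2.31-fold lower than mock and the lowest of the 6 Pst arrays. CRR42, an assembly factor of the chloroplast NADH dehydrogenase-like complex, had 115, 90.6 and 48.7, 2.36-fold lower. LHCB4.3, an antenna protein of photosystem II, had 354, 195 and 146, 2.42-fold lower, and was low on both infected arrays. TAAC had 86.4, 129 and 267, 3.09-fold higher and the highest of the 6 Pst arrays. Of 37 photosynthesis genes on the list 4 were measured, all with log2 ratios below 0 and none past 2-fold. The Calvin cycle enzymes PRK and SBPASE had -0.74 and -0.71, whereas RCA, rubisco activase, had -0.29 and LHCB4.1 -0.18. On the wild-type Pst array the same 4 had a median of -0.17, against -0.50 in the double mutant. RCA, a defining gene of green leaf tissue, had high signals on both arrays, 3347 on the mock array and 2735 on the double mutant array. Of 69 chloroplast-encoded genes 67 were measured, with a median log2 ratio of -0.07 and none past 2-fold.

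The remaining lower genes with a symbol had varied roles. NRT2.5 (AT1G12940), a high-affinity nitrate transporter, had 259, 110 and 90.9 on the mock, wild-type Pst and double mutant arrays, 2.85-fold lower than mock on the last. GLR2.7, a glutamate receptor-like channel whose mean over the 7 arrays was below the floor, had 57.6, 11 and 9.64, at least 2.61-fold lower. The expansin-like gene EXLA1 had 64.5, 26.4 and 17.2, at least 2.92-fold lower, and ATPMEPCRB, a pectin methylesterase, 434, 210 and 203. These were low on the double mutant and the wild-type Pst array alike. NANA, an aspartic protease, had 62.5, 49.7 and 30.6, 2.04-fold lower, and SGT1A, a co-chaperone of intracellular immune receptors, 326, 153 and 156, 2.08-fold lower. GH3.3 and WES1, which conjugate auxin to amino acids, had log2 ratios of 0.99 and -0.98 in the double mutant, just under 2-fold and in opposite directions. ATERDJ3B, a co-chaperone of the endoplasmic reticulum, had 554, 248 and 319.

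**Figure D4:**
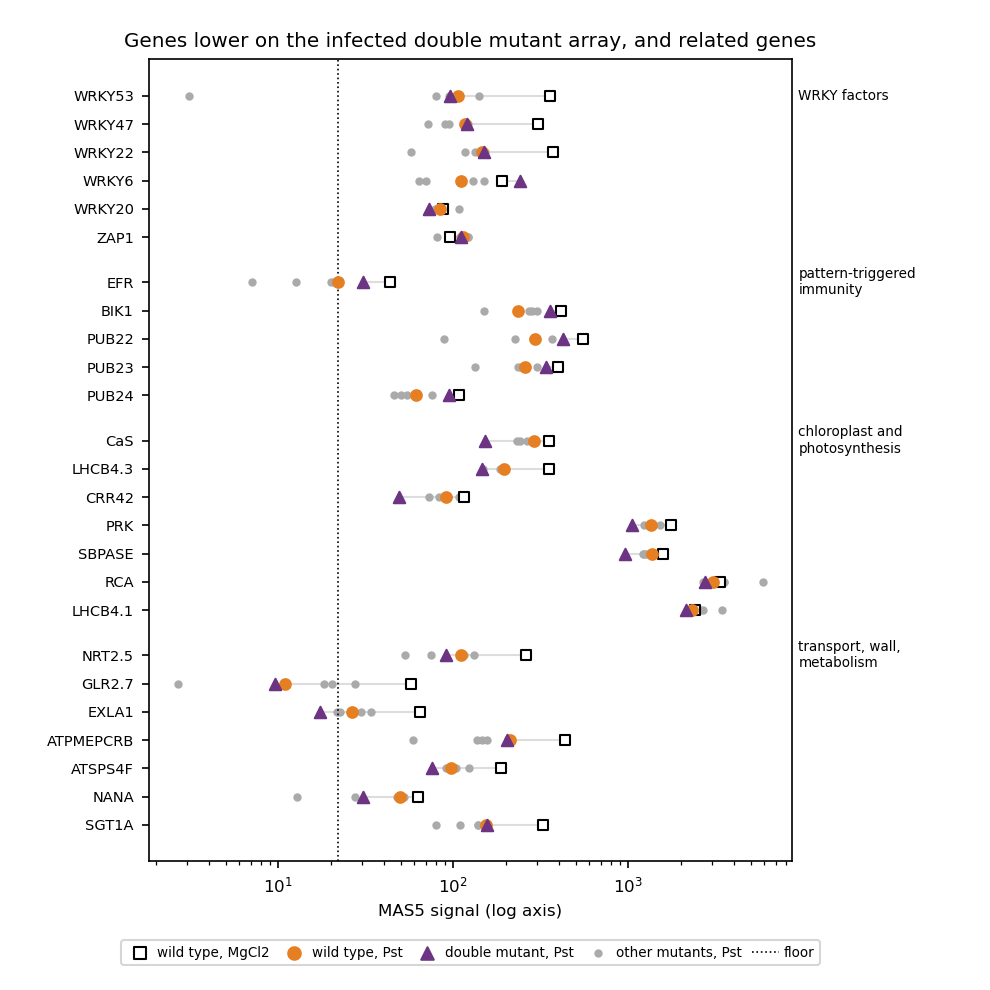
Signals on a log axis, with the symbols of the plot of higher genes, for lower genes and the lists they belong to. The triangle of the double mutant lies beside the circle of the wild type after Pst for WRKY53, WRKY47 and WRKY22, to the right of it for WRKY6, BIK1 and the PUB genes, and to the left of it for CaS, CRR42, PRK and SBPASE.

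Among lower genes given by locus code, AT1G49000 had 353, 34.7 and 74 in the same order of arrays, 4.76-fold lower than mock in the double mutant and 10.2-fold lower in the wild type after Pst. AT1G65490 had 253, 63.5 and 58.9, and AT5G25440 323, 105 and 96.3, low to a like extent on both infected arrays. AT3G56880, with 698, 237 and 248, and AT1G51850, with 748, 293 and 280, were more abundant genes with the same pattern. Of the 15 named genes lowest against mock, 13 lay within 2-fold of the wild-type Pst array, 1 (AT1G49000) at least 2-fold above it and 1 (AT2G29290) at least 2-fold below it. Over all measured genes 1.25% lay at least 2-fold above that array and 0.152% below it. These 15 too were chosen by their double mutant signal, so the count only describes them.

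Between the infected double mutant and the infected wild type, 91 of the 7259 measured genes (1.25%) were higher by 2-fold or more in the former and 11 (0.152%) in the latter. The 8 genes lower than mock in the double mutant and farthest below the wild-type Pst array, chosen by these values, are given next, CaS having been given above. AT3G59780 had 83.4 on the mock array, 109 on the wild-type Pst array and 34.1 on the double mutant array, 2.44-fold lower than mock. AT2G28605 had 89.5, 98.4 and 38.3, and AT5G66470 112, 112 and 50.1. For these 3 genes the double mutant was low against both the mock and the wild-type Pst array, but not always alone. AT5G66470 was nearly as low on the wrky60 array, at 53.5. AT3G59780 and AT2G28605 were also below the mock and wild-type Pst arrays on the wrky40 array, at 56 and 55.7. AT2G29290 had 337, 216 and 108, stepping down over the 3 arrays. AT1G44000 had 209, 176 and 90.9. AT3G55920 and AT5G55640 had 22.2 and 21.1 in the double mutant, and the wrky18 array was lower still for both, at 17.4 and 17.4. The double mutant was the lowest of the 6 Pst arrays for the other 6 of the 8 genes.

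Some genes higher on the wild-type Pst array were less high in the double mutant. Of the 8 named genes farthest back, chosen by these values, MSRB6 and JAL34 are given above. AT2G43535 had 83.8, 347 and 196 on the mock, wild-type Pst and double mutant arrays, still 2.34-fold higher than mock. ARLA1C, an ADP-ribosylation factor-like GTPase, had 104, 269 and 147, but the wrky53, wrky60 and wrky40 arrays had 88.7, 98 and 107, so that 3 of the 4 other infected mutants were lower still. AT5G67150 had 33.9, 112 and 63.5, and AT2G39920 40.3, 93.9 and 52. AT5G50340 and AT3G57460 were near or below the floor on the mock array, at 26.2 and 20.6, and at 25 and 18.3 in the double mutant. Of these 8, AT5G50340, AT3G57460 and MSRB6 were at least 2-fold below the wild-type Pst array.

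The lists were last set side by side. Of 46 lists, 12 had no member with a named probe set and 20 had at least 3 measured members, and their medians against mock ran from -0.78 for the WRKY family to 2.74 for jasmonate genes. Families with medians near 0 were the cytochrome P450 genes, at -0.04, the beta-glucosidases, at 0.06 over 8 genes, and the xyloglucan hydrolases and expansins, at -0.07 over 12 genes. The glutamate receptors had 0.20 over 3 genes, the U-box ligases -0.19 over 5, the calmodulin-related genes -0.16 over 5 and the glutathione transferases -0.23 over 5. Both measured members of the ethylene list were the PDF1.2 genes given above. Of the 5 genes on the peroxidase list, which was taken by symbol or synonym, 2 were measured, Prx37 and AT5G64120, with log2 ratios of 2.16 and -0.47. The oxidative stress genes NDB2 and AT2G21640 had log2 ratios of 0.48 and -0.41, and PORB, of chlorophyll synthesis, -0.30. The 3 measured reference genes, AT4G34270, AT2G28390 and PEX4, had -0.09, -0.24 and 0.01. As to other tissues, the root hair genes EXPA7 and EXPA18 and the meristem gene CLV3 were below the floor on the mock and double mutant arrays, and FMA, a guard cell factor, had 60.1 and 70.7. No named probe set was found for the 11 flower and seed markers.

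**Figure D5:**
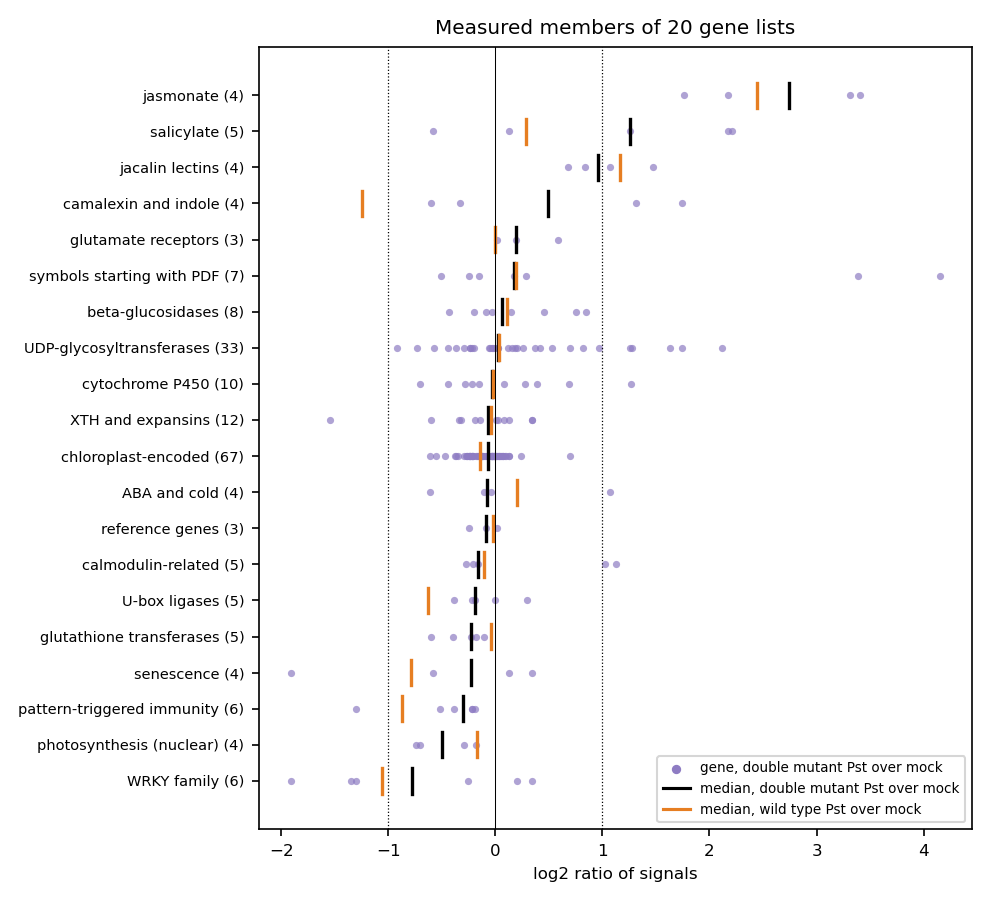
Log2 ratios of signal on the infected double mutant array over the mock wild-type array for measured members of 20 gene lists, 1 point per gene, with the number of members in brackets, the median as a black bar, the median for the wild type after Pst-DC3000 over the same mock array as an orange bar, and dotted lines at 2-fold. The black and orange bars lie farther apart for the salicylate, camalexin and pattern-triggered immunity lists than for the jasmonate list. A gap between 2 medians is not the typical difference per gene. In the same order of lists, the median log2 ratio of the double mutant to the wild type after Pst was 0.38, 0.78, 0.50 and 0.23. Both salicylate bars are at the values of UGT76B1.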

How the data were processed

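RNA of entire rosettes was hybridised to 7 ATH1 arrays, 1 per group. The deposited values are intensity values on a linear scale, 1 per probe set, made by the authors with MAS5, per the submitters' processing notes; its version and settings are not given in the sources used here. As to scale, the 2% trimmed mean of every array lay between 99.9586 and 99.9637, so the arrays had been scaled to a common mean. No genome was used, and no sequence is printed.

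The 64 control probe sets were left out. The 22746 others took a gene only where the platform annotation gives exactly 1 (13513; 503 had several and 8730 none), and 13436 of these were updated through the RefSeq gene table of TAIR10.1. A gene with several probe sets was represented by the one with the highest mean signal over the 7 arrays. A gene was called measured where that mean reached the floor, which a gene high only on infected arrays can do.

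Signals below 22.1, the 40th percentile averaged over the arrays, were raised to it before log2 was taken, and ratios of at least 2-fold were counted. With 1 array per group there is no replicate error and no test, and the precision of single signals is unknown. A count on simulated arrays with known changes was checked first. Named genes were the genes disrupted in the series, the 15 highest and 15 lowest over mock, the 8 on each side farthest from the wild-type Pst array, the 8 on each side farthest back from their wild-type response, and members of gene lists; called genes with a symbol were added after their values were seen. Genes, lists and families were chosen with earlier results of these arrays known, so their counts are descriptions. Alternatives were other floors, a floor value added to the signal, other scalings, other folds and 1 probe set per gene. Python 3.11.15, pandas 2.3.3, numpy 2.4.6, R 4.3.3 and limma 3.58.1 were used.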

Additional observations from a re-analysis of the deposited data

Results flagged for a closer look

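AT1G26380 was the 1 probe set of the 22746 that passed 2-fold in opposite directions in both genotypes, with a log2 ratio to mock of 1.32 on the double mutant Pst array and -2.04 on the wild-type Pst array. Both ratios share the mock array, each rests on 1 array, and the difference was not tested.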

How the results depend on the processing

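No paired analysis was possible because each group was 1 array and every title carries the same replicate number. No named gene past 2-fold changed its direction under the alternatives run, but the balance of counts and 1 list median did, as given below. With quantile normalization, median centring or cyclic loess, 421 to 453 probe sets were higher and 207 to 223 lower on the double mutant than on the mock array, with the floor set without the wrky60 array 434 and 230, and 219 of the 429 higher and 78 of the 219 lower probe sets were past 2-fold under every floor and scaling tried. The floor and the fold moved the counts, given next as higher and lower. With the floor at the 25th percentile (8.27), there were 626 and 408 for the double mutant over mock, 477 and 433 for the wild type over mock, and 388 and 175 for the double mutant over the wild type after Pst. At the 60th percentile (60.6) there were 256 and 120, 198 and 164, and 104 and 11. With the floor value added to each signal there were 297 and 106, 195 and 162, and 127 and 9. By 1 probe set per named gene, which tests fewer features, there were 172 and 103, 137 and 140, and 95 and 11. At 1.5-fold there were 1042 and 1099, 882 and 939, and 701 and 537, and at 3-fold 152 and 26, 120 and 37, and 54 and 5. So at 1.5-fold the excess of higher over lower probe sets in the double mutant was not present, and it had more lower probe sets against mock than the wild type did, where it had fewer at 2-fold. With the floor at the 60th percentile, 3 of 20 list medians moved by at least 0.25. Among list medians, the senescence median was -0.23 and became 0.07 with the floor at the 60th percentile, and the camalexin and indole median was 0.49 and became 0 with no minimum signal. BSMT1 and GRX480, at 99.3 and 102 on the double mutant array, were under 2-fold with the floor at 60.6. Of the salicylic acid list UGT76B1 alone then stayed past 2-fold. The jasmonate median ran down to 1.97, and GAT1_2.1 was under 2-fold with its 2 probe sets averaged (log2 ratio 0.65). Genes below the floor on the mock array, such as OSM34, QQS and BSMT1, have only a lower bound of their fold, which rises as the floor falls.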
